A study of Marchantia polymorpha and Arabidopsis thaliana with 40 samples.

Results

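ATAC-seq, an assay that lets the transposase Tn5 cut and tag DNA where chromatin is open, was applied to gemmalings of the liverwort Marchantia polymorpha, the young plants that grow from its asexual propagules. The heat response described here is that of hsfa1, a knockout of the heat shock factor gene HSFA1, and it rests on 4 of the 40 libraries of the series, chosen by their genotype and treatment labels. In the control group 2 libraries came from hsfa1 plants kept at 22 °C, and in the heated group 2 libraries came from hsfa1 plants exposed to 37 °C for 1 h. All plants were taken at day 7 and each library was made from 50000 sorted nuclei. All 40873 regions of the deposited table for the heat series were used. Control and heated plants both carried the knockout, so the contrast is heat within the mutant. The labels name a single hsfa1 line, and effects of that line and of the missing gene cannot be told apart. Beside it stand the same treatments of Tak-1, the wild type and a male accession, of the hsfb1 knockout and of dko, the hsfa1 hsfb1 double knockout, each with 2 libraries per group, none of them shared with hsfa1.

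Heat shock factors are transcription factors that bind heat shock elements, short repeats of GAA and its complement in promoters, and class A factors activate genes for chaperones and other protective proteins when proteins unfold. In flowering plants HSFA1 proteins act early in this cascade, held inactive by chaperones without heat, while class B factors lack the activation domain of class A and often repress. Regions opened by heat in wild type plants commonly lie near activated genes, and a plant without HSFA1 shows which openings and closings happen without it. The build of the genome and gene positions on it were not used here, so a region is identified by its deposited position alone, without its gene, exon or intron and without its sequence, and neither the deletion nor markers of the tissue were checked in these counts.

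The hsfa1 control libraries held 21.2 and 22.2 M counts and the heated ones 34.5 and 34.8 M, so depth and temperature went together, and their part in the results was not tested. The median region had 266 and 281 counts in the control and 424 and 438 in the heated libraries. Library scaling factors were near 1 (0.991 to 1.03). Counts of replicates differed beyond counting noise in both groups, with a chi-square of 2.84 per region between the control libraries and 2.55 between the heated ones. Whether replicates came from separate cultures is not stated in the labels, so p-values measure only the spread between samples of this series. That spread was estimated over all 16 libraries together, so the p-values and SEs of hsfa1 also depend on replicates of the other genotypes. Of the other groups, the control pair and the heated pair of Tak-1 differed most (24.5 and 24.2 per region), and even counts made up 0.536 and 0.564 of all regions in the dko controls, where the other 14 libraries had 0.497 to 0.508.

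Heat changed accessibility at a large part of the regions in hsfa1, more often by small than by large amounts, and its large changes were mostly losses. By the edgeR quasi-likelihood F test, adjusted over all regions by Benjamini-Hochberg, 15398 of 40873 regions changed (37.7%), 7016 higher (17.2%) and 8382 lower (20.5%). Over 2-fold there were 616 higher regions (1.51%) and 1993 lower ones (4.88%). Both were narrow, with median widths of 287.5 and 157 bases against 435 over all regions. The narrowest 10% of all regions held 60 of the 616 and 688 of the 1993. The higher regions had a median log2 change of 0.54 and the lower ones of -0.70, against -0.02 over all regions. Without hsfa1 control replicate 2 the count was 8888, and without hsfa1 heat replicate 1 it was 9296. When libraries were scaled by total count the split was 8412 higher and 6758 lower, so the larger side turned. It also turned with loess offsets (8762 and 8588), with a mean of at least 100 counts (7454 and 7202), without hsfa1 heat replicate 1 (4728 and 4568) and without heat replicate 2 (5582 and 5481). Over 2-fold the losses outnumbered the gains under each scaling, most narrowly with loess offsets (994 higher, 1425 lower).

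**Figure D1:**
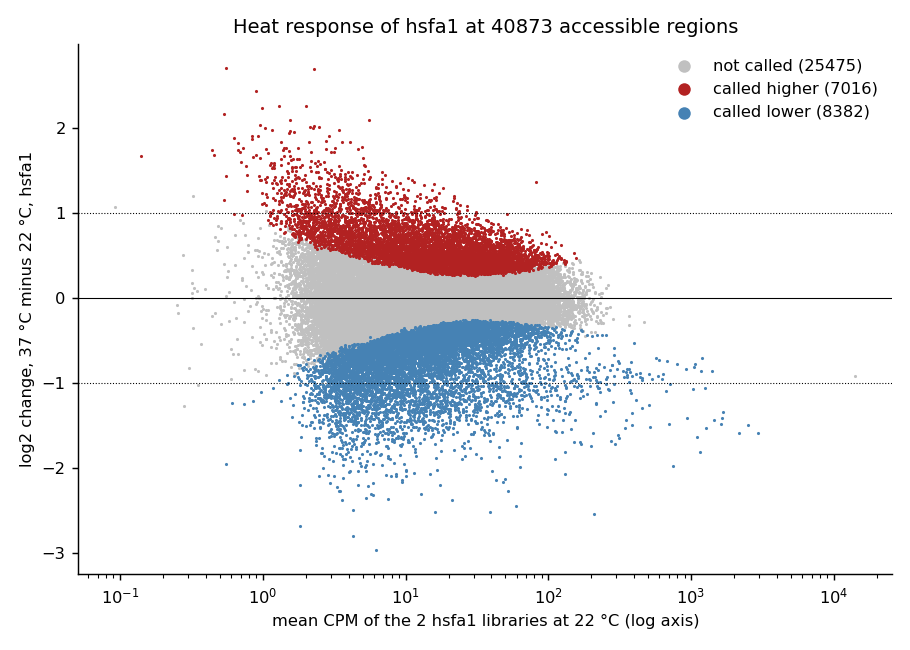
Each point is 1 of the 40873 regions, placed by its mean level in counts per 1e6 (CPM) in the 2 hsfa1 control libraries (log axis) and its log2 change with heat in hsfa1, with 7016 called higher in red and 8382 called lower in blue. Dotted lines mark 2-fold. Most gains over 2-fold sit at low levels on this axis, while losses over 2-fold reach levels above 1000 CPM. The controls that set the level also enter the change, which moves gains to low and losses to high levels. In the lowest 10% of regions by this level there were 319 gains and 196 losses over 2-fold. With regions ranked by the 12 libraries of the other genotypes, the lowest 10% held 158 gains and 524 losses.

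The 12 highest gains were at regions that held at most 6.38 CPM, or counts per 1e6 of the TMM-scaled library total, in the hsfa1 controls. The region chr7:21233392-21233509, 117 bases wide, held 0.380 and 0.724 CPM in the hsfa1 control libraries and 3.65 and 3.62 CPM in the heated ones, a log2 change of 2.70 (SE 0.32, adjusted p = 3.63e-07 by edgeR). Both heated libraries lay far above both controls. The same region held 0.385 and 0.533 CPM in control and 3.09 and 2.77 CPM in heated dko, and its gain in hsfb1 was smaller, from 1.11 and 1.20 to 2.34 and 1.92 CPM. The difference between the hsfa1 and hsfb1 responses was 1.82 (SE 0.45, adjusted p = 0.0146).

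On chromosome 5, 3 neighbouring regions stood among the 12 highest. The region chr5:6887020-6887383 rose from 1.43 and 3.17 CPM to 9.01 and 9.78 CPM (log2 change 2.02, SE 0.28, adjusted p = 2.35e-06 by edgeR). Its neighbours chr5:6887519-6887743 and chr5:6887939-6888745 changed by 2.43 and 2.69. In all 3 the response was larger in hsfa1 than in hsfb1, by 1.42, 1.91 and 1.38 on the log2 scale (adjusted p = 0.0289, 0.00908 and 0.00465 by edgeR). Against Tak-1 and dko none of the 3 differences passed the threshold.

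Other regions among the 12 were called higher in all 4 genotypes. The region chr4:10910225-10910409 held 1.57 and 1.04 CPM in control and 7.21 and 5.30 CPM in heated hsfa1, with log2 changes of 2.26 in hsfa1 and of 2.31, 2.21 and 2.25 in Tak-1, hsfb1 and dko. The 8 libraries at 22 °C all lay below the 8 at 37 °C. The region chr5:9099250-9099442 rose from 1.38 and 2.62 to 9.95 and 9.31 CPM in hsfa1, a change of 2.26 (SE 0.25), beside 1.97, 2.08 and 2.21 in Tak-1, hsfb1 and dko. At chr5:26074-26492 the hsfa1 values were 4.75 and 6.38 CPM in control and 24.3 and 23.3 CPM in heated plants, a change of 2.10 (SE 0.19), beside 1.54, 1.42 and 2.85 in Tak-1, hsfb1 and dko. The region chr4:1332117-1332633 rose from 2.85 and 1.40 to 7.95 and 9.09 CPM in hsfa1 (2.01, SE 0.30) and by 3.00 in Tak-1, and that difference missed the threshold (-0.99, SE 0.43, adjusted p = 0.131 by edgeR).

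Of the 12 regions with the highest change, 12 were also called higher in Tak-1, 12 in dko and 8 in hsfb1, where Tak-1 called 12.0% of all regions higher, dko 13.3% and hsfb1 6.19%. The 4 without a call in hsfb1 were chr5:6887519-6887743, chr5:6887020-6887383, chr3:1451717-1451826 and chr5:14036960-14037075, with log2 changes there of 0.52, 0.61, 0.66 and 0.39. Of these, chr3:1451717-1451826 rose from 0.950 and 1.04 to 5.22 and 4.15 CPM in hsfa1 and chr5:14036960-14037075 from 1.33 and 0.588 to 3.91 and 3.93 CPM. The remaining members, chr1:11811120-11811381 and chr3:20313398-20313805, rose by 2.10 (SE 0.27) and 2.01 (SE 0.24).

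Many of the 616 regions that rose over 2-fold in hsfa1 were also called higher elsewhere. Their median log2 change was 1.19 in hsfa1 and 0.92, 0.53 and 0.90 in Tak-1, hsfb1 and dko. The choice by change in hsfa1 favours large changes there. The medians and shares of counts therefore give no test of hsfa1 against the others. Tak-1, hsfb1 and dko called 487, 271 and 480 of them higher, against 12.0%, 6.19% and 13.3% of all regions. They called 0, 2 and 0 of them lower, against 13.1%, 8.79% and 16.0% of all regions. In all of the other genotypes 237 were higher (914 of the 40873 regions), and 53 were higher in none of them (32048 of 40873). The median region of this group stood at 3.14 and 3.08 CPM in the hsfa1 controls and at 7.68 and 7.39 CPM in the heated libraries, and their share of all counts went from 0.295% and 0.282% to 0.686% and 0.684%.

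**Figure D2:**
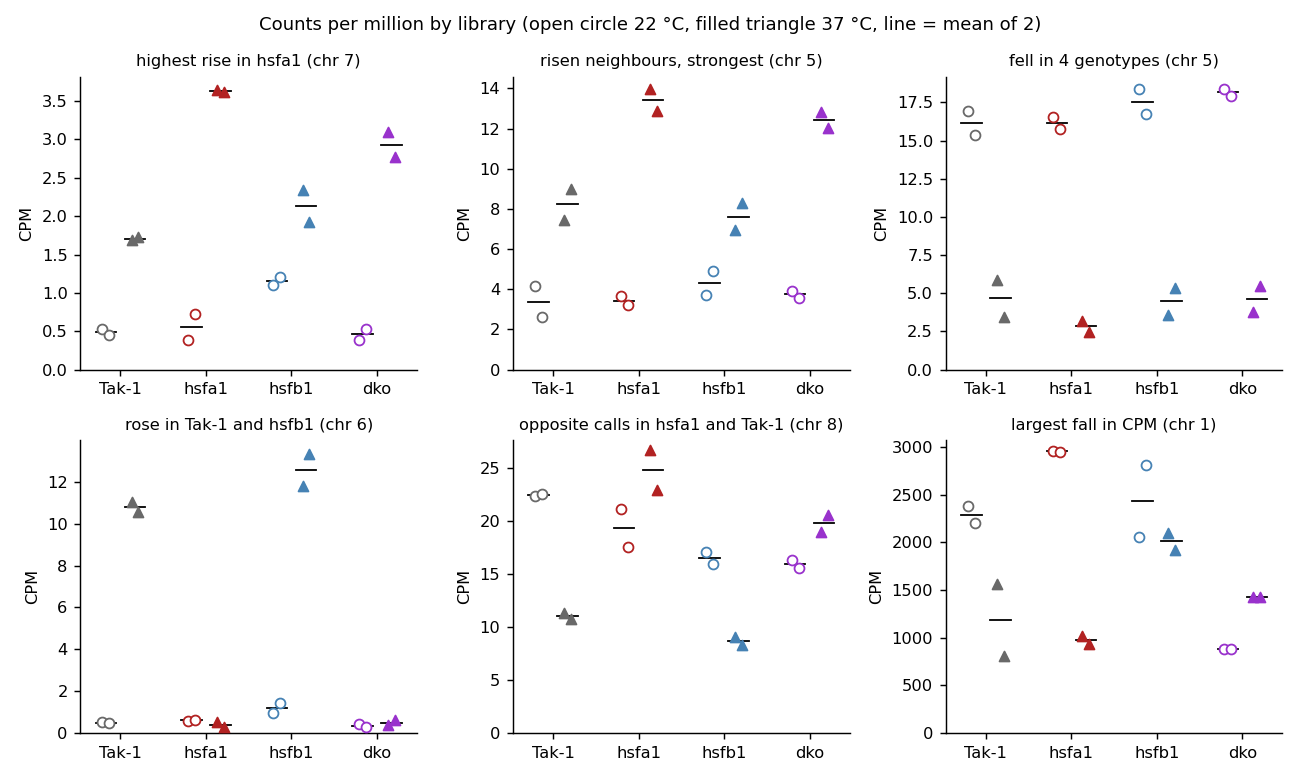
CPM in each of the 16 libraries at 6 regions, with open circles for 22 °C, filled triangles for 37 °C and a line at the mean of 2 libraries. The highest gain of hsfa1 reached 3.65 and 3.62 CPM, while the chromosome 6 region that rose in Tak-1 and hsfb1 stayed at or below 0.634 CPM in the 4 hsfa1 libraries.

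Gains over 2-fold often lay beside each other. Of the 616, 161 (26.1%) had a neighbour in the table that also rose over 2-fold, against 2.92% of all regions. Stretches of at least 4 neighbouring regions that all rose over 2-fold numbered 2. The longer, chr5:5232278-5236479, held 5 regions in 4.20 kb with changes of 1.05 to 1.97. Its widest region, chr5:5233731-5234887, rose from 16.4 and 14.3 to 38.3 and 35.3 CPM in hsfa1 (1.27, SE 0.12, adjusted p = 3.64e-08 by edgeR). Heat moved it far less elsewhere, from 18.4 and 19.9 to 23.2 and 25.4 CPM in Tak-1 and from 21.8 and 18.1 to 21.5 and 24.1 CPM in hsfb1. The response was larger in hsfa1 than in Tak-1 by 0.92, than in hsfb1 by 1.08 and than in dko by 0.96 (adjusted p = 0.00155, 0.00047 and 0.000215 by edgeR). Next to it, chr5:5235053-5235564 rose from 3.66 and 3.21 to 14.0 and 12.9 CPM (1.97, SE 0.20) and also rose by 1.73 in dko, 1.29 in Tak-1 and 0.84 in hsfb1.

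The other stretch, chr3:6376301-6378623, held 4 regions with changes of 1.10 to 1.40. Its first region, chr3:6376301-6376896, rose from 10.0 and 9.68 to 23.0 and 21.8 CPM (1.18, SE 0.15), more than in Tak-1 by 0.72 (adjusted p = 0.0331 by edgeR) and than in hsfb1 by 1.01 (adjusted p = 0.00465). All 4 regions were called higher in Tak-1 and in dko and 0 of them in hsfb1.

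Measured in CPM rather than in fold, the largest gains were at wide and already open regions. The largest, unplaced-scaffold_330 from 3107 to 4395, rose from 92.9 and 71 to 217 and 206 CPM in hsfa1 (log2 change 1.37, SE 0.16, adjusted p = 3.65e-07 by edgeR) and by 1.29, 1.12 and 2.43 in Tak-1, hsfb1 and dko. The other 5 were 3063 to 4225 bases wide and rose by 0.52 to 0.78. At chr1:20454647-20457753 the hsfa1 libraries went from 108 and 95.4 to 169 and 167 CPM, while Tak-1 held 144 and 191 CPM in control and 149 and 165 CPM in heated plants. That region, chr7:7695423-7699350 and chr3:1749218-1752281 responded more in hsfa1 than in Tak-1, by 0.82, 0.87 and 0.72 (adjusted p = 0.0285, 0.0386 and 0.0461 by edgeR). At all 5 both hsfa1 control libraries stood below both Tak-1 controls. The calls at chr4:12671752-12675977 and chr7:7695423-7699350 did not hold when some hsfa1 libraries were left out, with adjusted p up to 0.147 and 0.0954.

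Over 2-fold, losses outnumbered gains. The lowest change was at chr8:7488465-7488669, where the hsfa1 libraries fell from 7.70 and 4.75 to 1.20 and 0.390 CPM (-2.97, SE 0.56, adjusted p = 0.000133 by edgeR) and hsfb1 fell by 2.44. The region chr5:7076760-7077110 fell from 16.6 and 15.8 to 3.19 and 2.45 CPM in hsfa1 (-2.52, SE 0.21, adjusted p = 4.58e-09 by edgeR). It held 15.4 to 18.4 CPM in the 8 libraries at 22 °C and 2.45 to 5.90 CPM in the 8 at 37 °C, so heat separated the libraries in each genotype. At chr1:26848102-26848220 the hsfa1 values fell from 4.13 and 4.39 to 0.542 and 0.669 CPM, a change of -2.81 (SE 0.36). The dko change there was -2.56, and Tak-1 went from 2.49 and 1.29 to 1.70 and 1.33 CPM, so the hsfa1 response minus that of Tak-1 was -2.49 (log2, SE 0.47, adjusted p = 0.00219 by edgeR).

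Several of the 12 lowest regions shared a pattern in which Tak-1 control replicate 2 stood low. At chrV:7405048-7406354 the hsfa1 libraries fell from 231 and 185 to 40.3 and 31.0 CPM (-2.55, SE 0.42), while the Tak-1 controls held 243 and 37.0 CPM. At chr4:26709533-26709939 hsfa1 fell from 63.2 and 56.3 to 12.5 and 9.36 CPM (-2.45, SE 0.33) and the Tak-1 controls held 57.1 and 14.1 CPM. The hsfb1 change there was -1.42 and the dko change -0.22, and the hsfa1 response minus that of dko was -2.24 (log2, SE 0.45, adjusted p = 0.00122 by edgeR). Of the 12 lowest regions, 5 were also lower in Tak-1 (13.1% of all regions), 11 in hsfb1 (8.79%) and 5 in dko (16.0%), and 0 were higher in any of them. Those without the Tak-1 split included chr3:22178824-22178938, which fell from 2.90 and 4.30 to 0.855 and 0.530 CPM (-2.38, SE 0.34), and chr2:27116826-27116931, which fell from 4.75 and 5.84 to 1.08 and 0.975 CPM (-2.36, SE 0.31) and was lower in all 4 genotypes.

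Among the 1993 regions that fell over 2-fold, the median log2 change was -1.22 in hsfa1 and -0.51, -0.64 and -0.69 in Tak-1, hsfb1 and dko. These regions, too, were chosen by their change in hsfa1, so the medians and shares of counts give no test of hsfa1 against the others. Those genotypes called 1032, 1031 and 1060 of them lower (51.8%, 51.7% and 53.2%), against 13.1%, 8.79% and 16.0% of all regions. They called 18, 11 and 259 of them higher, against 12.0%, 6.19% and 13.3% of all regions. The 259 higher in dko were 13.0% of the 1993, near the share over all regions. Lower in all of the other genotypes were 413 (1038 of the 40873 regions), and 250 were lower in none (29849 of 40873). Their share of all counts fell from 6.53% and 6.77% in the hsfa1 controls to 2.75% and 2.70% in the heated libraries. Of the 1993, 451 (22.6%) had a neighbour that also fell over 2-fold, against 9.32% of all regions.

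Densely covered regions fell in hsfa1 almost without exception, and remained well covered after heat. A region was called dense when it held over 200 CPM per kb of width on average over the 12 libraries of the other genotypes. The hsfa1 libraries entered this measure only through the joint scaling. The class was chosen after its values were seen, and its regions share libraries and scaling, so their calls are not independent. In hsfa1, 268 of 272 dense regions were called lower and 0 higher (all regions 20.5% and 17.2%), with a median change of -1.05. They were narrower than most, with a median width of 229.5 against 435 bases. Their median was 119.8 and 118.2 CPM in the controls and 54.2 and 53.4 CPM in the heated libraries. Together they took 8.18% and 8.53% of the counts of the hsfa1 controls and 4.06% and 4.06% of those of the heated libraries, with no overlap between the groups. Regions with 100 to 200 CPM per kb behaved alike, with 364 of 379 lower and 0 higher.

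The response of hsfa1 at the dense regions was lower, by the interaction test, at 239 of 272 for hsfb1 (3.40% of all regions) and 269 for dko (3.49%), but at 28 for Tak-1 (4.22%), and higher at 0 for each. Their median change was -0.56 in Tak-1, where 240 were called lower, -0.06 in hsfb1, where 19 were, and 0.63 in dko, where 0 were lower and 200 higher. These medians kept their signs with DESeq2, total count scaling and loess offsets, and so did the hsfa1 median. Replicates of hsfb1 and Tak-1 differed here. The dense regions took 5.75% and 8.05% of the counts of the hsfb1 controls, on either side of the heated hsfb1 libraries (6.94% and 6.33%). The Tak-1 controls held 6.01% and 5.63% there, and the heated Tak-1 libraries 4.93% and 2.99%. How far the calls at the dense regions depend on a single hsfb1 or Tak-1 library was not tested. The largest loss in CPM, chr1:176121-179014, belonged to this group and fell from 2961 and 2951 to 1018 and 937 CPM in hsfa1 (-1.60, SE 0.35, adjusted p = 0.000645 by edgeR). There dko rose from 879 and 881 to 1421 and 1431 CPM, a change that missed the threshold (0.70, SE 0.34, adjusted p = 0.125). Among the 8 libraries at 22 °C, those of dko held the lowest values and those of hsfa1 the highest. All 6 of the largest losses in CPM were dense, at 505 to 814 CPM per kb, and in each the response of hsfa1 minus that of dko passed the threshold, at -2.33 to -2.05 on the log2 scale.

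**Figure D3:**
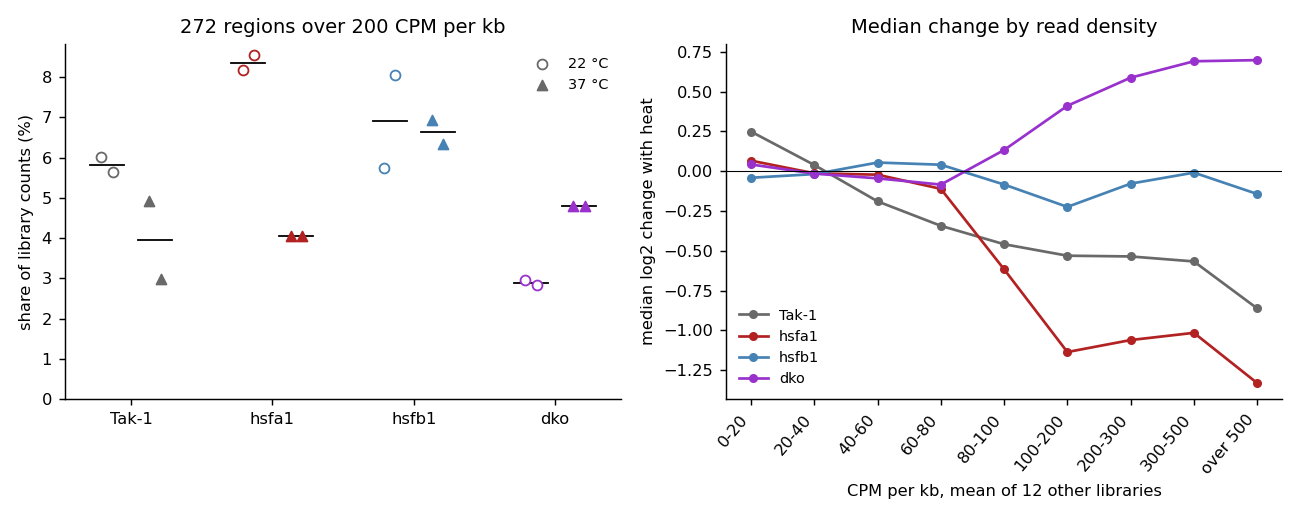
Left, the share of each library's counts (%) in the 272 regions over 200 CPM per kb, with open circles for 22 °C, filled triangles for 37 °C and a line at the mean of 2 libraries. Right, the median log2 change with heat by read density of the region (CPM per kb, mean of the 12 other libraries); the share fell from 8.18% and 8.53% to 4.06% in hsfa1 and rose from 2.95% and 2.83% to 4.79% in dko.

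Stretches of at least 4 neighbouring regions that all fell over 2-fold numbered 12, and the 5 longest held 22 dense regions. The longest, chrV:7021661-7409441, held 10 regions over 388 kb, of which 7 were dense, with changes of -2.55 to -1.10. The next, chr5:11567912-11572920, held 5 regions in 5.01 kb, all dense, with changes of -2.28 to -1.59 in hsfa1 and -0.93 to -0.85 in Tak-1. Within it, chr5:11571800-11572098 fell from 171 and 161 to 53.2 and 48.6 CPM (-1.70, SE 0.19), and its response minus that of Tak-1, hsfb1 and dko was -0.86, -1.36 and -2.63 (adjusted p = 0.0488, 0.00323 and 2.51e-07 by edgeR).

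Calls were spread evenly over chromosomes 1 to 8, where 16.1% to 18.5% of regions were higher and 18.7% to 21.5% lower. On chromosome V, 8 of 137 regions were higher (2 to 6 without any 1 hsfa1 library) and 63 lower, and on chromosome U all 22 regions were lower. The 22 regions of chromosome U had a median change of -1.03 in hsfa1 and -0.55, -0.05 and 0.65 in Tak-1, hsfb1 and dko, and 7 of them were dense, as were 14 regions of chromosome V. The chromosome U medians lay near those of the dense regions (-1.05, -0.56, -0.06 and 0.63). Tak-1 is a male accession, and whether the reads counted on chromosome U came from that chromosome was not tested.

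The direction of change in hsfa1 went with the width of the region. In the narrowest 10% of regions (63 to 118 bases) 186 were higher and 1217 lower, and in the widest 10% (1464 to 5432 bases) 1187 were higher and 137 lower. The medians were -0.33 and 0.18. Without any 1 hsfa1 library there were 94 to 117 higher and 720 to 984 lower in the narrowest 10%, and 482 to 1007 higher and 48 to 76 lower in the widest. Narrow regions held fewer counts, with a median of 78.5 per hsfa1 library in the narrowest 10% and 2169.8 in the widest. With loess offsets the medians were -0.08 and 0.12 and the calls 461 higher and 857 lower in the narrowest 10% and 1557 higher and 573 lower in the widest. Tak-1 went the other way in the widest 10%, with a median of -0.19 that became 0.06 with loess offsets. The other 2 genotypes went the same way as hsfa1. Their medians in the narrowest and widest 10% were -0.22 and 0.07 in hsfb1 and -0.17 and 0.03 in dko. With loess offsets these were 0.003 and 0.001 in hsfb1 and 0.06 and 0.05 in dko. The median of hsfa1 in the widest 10% stayed above 0, and in the narrowest below 0, under all 4 scalings and without any 1 hsfa1 library.

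**Figure D4:**
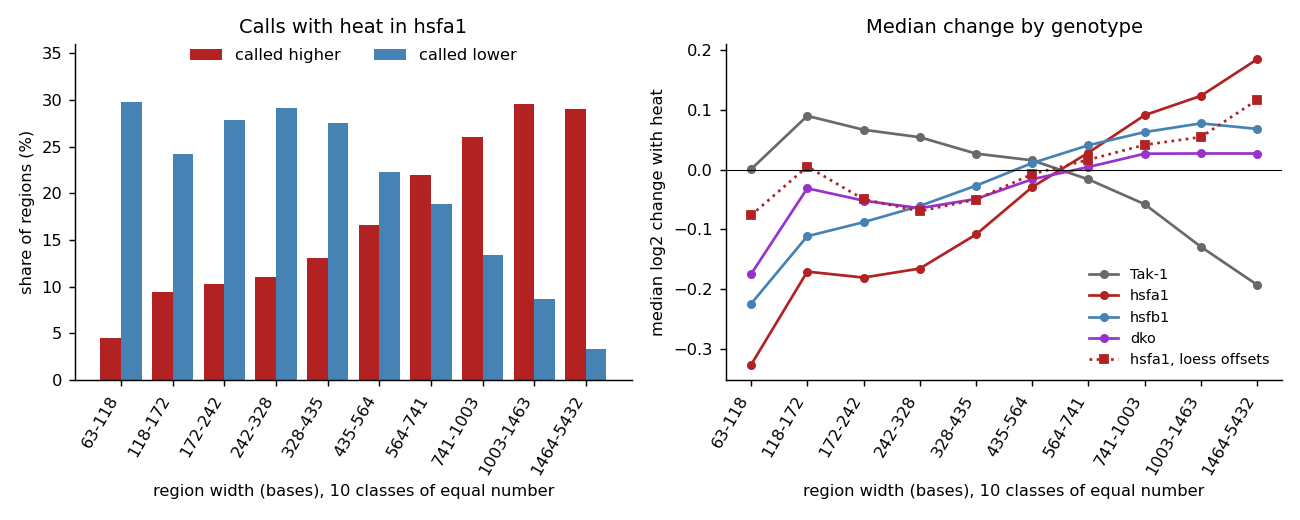
Left, the share of regions (%) called higher and lower with heat in hsfa1 in each of 10 width classes (bases). Right, the median log2 change with heat in each class for the 4 genotypes and for hsfa1 with loess offsets (dotted); the hsfa1 median went from -0.33 in the narrowest 10% to 0.18 in the widest, and from -0.08 to 0.12 with loess offsets.

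Set beside the other genotypes, the hsfa1 response shared part of its regions with each of them. Over all regions, 17.2% were higher in hsfa1 and 12.0%, 6.19% and 13.3% in Tak-1, hsfb1 and dko, and 20.5% were lower in hsfa1 and 13.1%, 8.79% and 16.0% in those. Of the regions higher in hsfa1, 2266 were higher in Tak-1 (32.3% of the hsfa1 list, 46.4% of the Tak-1 list), 1319 in hsfb1 (18.8% and 52.1%) and 2809 in dko (40.0% and 51.9%). Of those lower in hsfa1, 2897 were lower in Tak-1 (34.6% and 54.2%), 2545 in hsfb1 (30.4% and 70.8%) and 4052 in dko (48.3% and 61.9%). Opposite calls numbered 125 of the 40873 regions with Tak-1, 79 with hsfb1 and 561 with dko. Of these, 103, 60 and 511 were lower in hsfa1 and 22, 19 and 50 higher. Across regions, which are not independent and share libraries and scaling, the log2 changes of hsfa1 correlated at Pearson's r of 0.531 with Tak-1, 0.608 with hsfb1 and 0.607 with dko (n = 40873 regions).

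**Figure D5:**
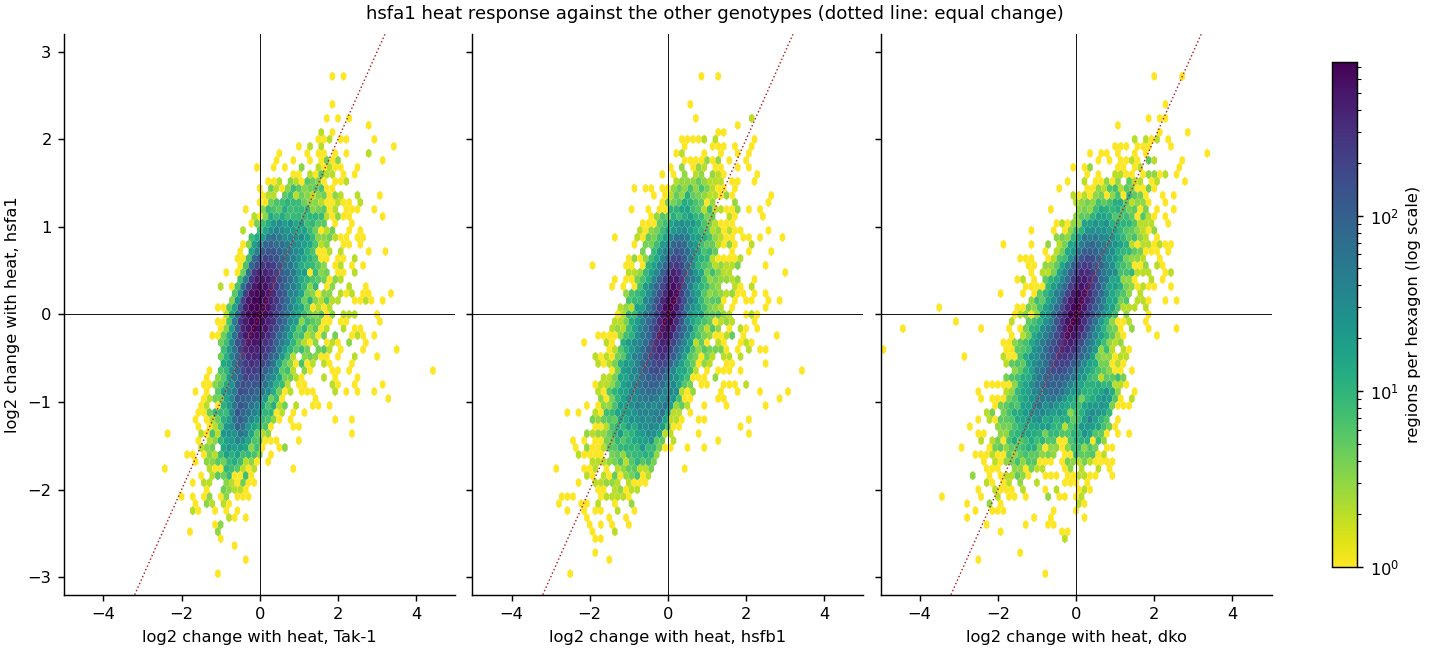
Log2 change with heat in hsfa1 (vertical axis) against that in Tak-1, hsfb1 and dko (horizontal axes), with 40873 regions counted per hexagon (colour, log scale) and a dotted line of equal change. Regions that rose over 2-fold in Tak-1 or hsfb1 and lay near 0 in hsfa1 extend to the right of the first 2 panels, and the dko panel has a separate group that fell in hsfa1 and rose in dko.

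Regions called higher and over 2-fold in both Tak-1 (2.48% of all) and hsfb1 (1.09%), the genotypes with HSFA1, numbered 399. The choice uses the calls of Tak-1 and hsfb1 alone, although scaling and spread were fitted over all 16 libraries. It favours large changes in Tak-1 and hsfb1, so it gives no test of those against hsfa1. Their median region held 2.61 and 2.81 CPM in the hsfa1 controls and 3.76 and 4.35 CPM in heated hsfa1, where heated Tak-1 held 7.04 and 7.00 CPM and heated hsfb1 held 7.93 and 8.11 CPM. The median log2 change was 0.45 in hsfa1 and 0.66 in dko, and 164 of the 399 were called higher and 22 lower in hsfa1 (5 lower without hsfa1 heat replicate 1), where 17.2% and 20.5% of all regions were. In dko 208 were called higher and 13 lower (13.3% and 16.0% of all). The difference between the hsfa1 and dko responses was called higher at 1 and lower at 12 of these regions, where 1.84% and 3.49% of all regions were called.

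The 3 lowest differences from Tak-1 lay on chromosome 6. At chr6:23014005-23014289 the hsfa1 libraries held 0.570 and 0.634 CPM in control and 0.513 and 0.279 CPM in heated plants, and dko held 0.407 and 0.296 CPM, then 0.364 and 0.615 CPM. Heated Tak-1 held 11.1 and 10.6 CPM and heated hsfb1 11.8 and 13.3 CPM, far above each of the 8 hsfa1 and dko libraries. The hsfa1 response minus that of Tak-1 was -5.04 on the log2 scale (SE 0.53, adjusted p = 2.86e-07 by edgeR), and minus that of hsfb1 it was -4.04 (SE 0.52, adjusted p = 1.53e-05). The 4 hsfa1 libraries held 10 to 18 counts there, so the mean of 50 counts asked of named regions was reached through heated Tak-1 and hsfb1. On the same chromosome, chr6:21510937-21511695 held 2.04 and 2.08, then 1.37 and 1.76 CPM in hsfa1 and reached 13.7 and 15.3 CPM in heated Tak-1 and 13.4 and 15.2 CPM in heated hsfb1. At chr7:10377869-10378033 the heated hsfa1 libraries held 0.342 and 0.669 CPM, while those of Tak-1 held 3.50 and 3.78 CPM and those of hsfb1 5.08 and 5.39 CPM. At chr7:10377869-10378033, too, the hsfa1 libraries held few counts (12 to 24). None of the 3 regions named here was called in hsfa1.

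Some regions that opened in Tak-1 were called lower in hsfa1. The region chr1:11797497-11797858 fell from 2.52 and 2.4 to 1.08 and 0.808 CPM in hsfa1 (-1.38, SE 0.31, adjusted p = 0.000805 by edgeR) and rose from 1.60 and 1.38 to 7.53 and 7.97 CPM in Tak-1 and from 2.08 and 2.06 to 9.12 and 8.55 CPM in hsfb1. In dko it stood at 1.11 and 0.800, then 0.455 and 1.17 CPM. At chr6:21511931-21512229 and chr4:16484553-16484724 the hsfa1 changes were -0.97 and -1.22, beside 3.34 and 2.42 in Tak-1. The hsfa1 libraries held few counts there, 16 to 31 at the first and 16 to 34 at the second. No minimum count was asked of regions named for opposite calls. The hsfa1 losses at these 2 regions missed the threshold with loess offsets (adjusted p = 0.244 and 0.117) and without hsfa1 control replicate 1 (0.129 and 0.178) or heat replicate 1 (0.363 and 0.166). The first also missed it with total count scaling (0.0692) and without control replicate 2 (0.119), while the differences from Tak-1 passed it under every setting tried. Of 125 regions called in opposite directions in hsfa1 and Tak-1, 103 were lower in hsfa1 and 22 higher.

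In the reverse direction, chr8:15989318-15989846 rose from 21.1 and 17.6 to 26.7 and 22.9 CPM in hsfa1 and fell from 22.3 and 22.5 to 11.3 and 10.7 CPM in Tak-1. It rose in dko from 16.3 and 15.6 to 19.0 and 20.5 CPM and fell in hsfb1 from 17.1 and 15.9 to 9.08 and 8.25 CPM. The difference was 1.39 (SE 0.16, adjusted p = 2.14e-06 by edgeR) from Tak-1 and 1.29 (SE 0.17, adjusted p = 3.26e-05) from hsfb1. The hsfa1 rise of 0.36 missed the threshold without hsfa1 control replicate 2 or hsfa1 heat replicate 1 (adjusted p = 0.263 and 0.171). The other 2 named regions of this kind, chr2:23335094-23335353 and chr4:15886210-15888308, differed by 1.00 and 0.89, and these differences missed it when 1 of several libraries was left out (adjusted p up to 0.180 and 0.113), and the first also with total count scaling (0.0539). The hsfa1 rise at chr2:23335094-23335353 missed the threshold without any 1 of 3 hsfa1 libraries (adjusted p = 0.0598 to 0.272), and that at chr4:15886210-15888308 without any 1 of the 4 (0.0657 to 0.214).

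Over all regions, the hsfa1 response differed from that of Tak-1 at 2725 regions (6.67%), higher at 1002 (2.45%) and lower at 1723 (4.22%), and over 2-fold it was higher at 41 (0.100%) and lower at 819 (2.00%). Total count scaling gave 375 higher and 1030 lower and the median of all regions moved from -0.03 to -0.16, and with DESeq2 it was 1526 to 1590. Leaving out single libraries moved the count widely: it was 14522 and 298 when control replicate 1 or 2 of Tak-1 was left out, 383 and 6389 when its heat replicate 1 or 2 was, and 1205, 363, 306 and 553 without hsfa1 control replicates 1 and 2 and heat replicates 1 and 2. The larger side turned without Tak-1 control replicate 1 (7946 higher, 6576 lower), and without hsfa1 control replicate 2 there were 22 higher and 341 lower. Among the highest differences, chr5:5128437-5128567 rose from 1.28 and 1.54 to 3.28 and 3.26 CPM in hsfa1 and held 3.28 and 3.36, then 2.51 and 2.78 CPM in Tak-1. At chr4:21847831-21848063 hsfa1 rose from 4.56 and 3.58 to 8.47 and 7.72 CPM and Tak-1 held 7.28 and 10.5, then 6.04 and 7.47 CPM. In both the hsfa1 controls lay below all Tak-1 libraries. The differences were 1.53 and 1.39, and the first missed the threshold when heat replicate 1 of Tak-1 or of hsfa1 was left out (adjusted p = 0.0607 and 0.0615 by edgeR).

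From hsfb1 the response differed at 1983 regions (4.85%), higher at 593 (1.45%) and lower at 1390 (3.40%), and over 2-fold it was higher at 173 (0.423%) and lower at 574 (1.40%). Total count scaling gave 855 higher and 756 lower, so its larger side turned, and 1004 to 1468 with loess offsets. Without a single hsfb1 library the count was 400 (control replicate 1), 3234 (control replicate 2), 368 (heat replicate 1) or 1276 (heat replicate 2), and it was 512, 604 and 812 without hsfa1 control replicate 2, heat replicate 1 or heat replicate 2. The 4 highest differences were at regions called lower in hsfb1. At chr4:16207818-16207962 hsfa1 rose from 1.85 and 1.36 to 4.22 and 4.79 CPM, while hsfb1 fell from 2.08 and 2.36 to 1.26 and 1.18 CPM, a difference of 2.35 (SE 0.39, adjusted p = 0.000734 by edgeR). The hsfa1 response there was also higher than that of dko, by 1.76 (adjusted p = 0.00232). At chr3:2227424-2227500 and chr4:24589553-24589651 the differences from hsfb1 were 2.54 and 2.21.

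From dko, which lacks HSFB1 as well, the response differed at 2178 regions (5.33%), higher at 752 (1.84%) and lower at 1426 (3.49%), and over 2-fold it was higher at 149 (0.365%) and lower at 1101 (2.69%). With total count scaling the split was 1551 to 1122, so its larger side turned. The count was 1395, 1401, 1289 and 1259 without dko heat replicate 1, dko heat replicate 2, hsfa1 control replicate 2 and hsfa1 heat replicate 1. The dko controls are the libraries with an excess of even counts, and its part in these differences was not tested. The highest differences, at chr4:11318365-11318976 and chr2:15866887-15867196, were at regions with many more counts in the dko controls than in any other library. The region chr4:11318365-11318976 held 0.998 to 1.76 CPM in the 4 hsfa1 libraries and 47.7 and 48.3 CPM in dko controls, then 1.21 and 2.01 CPM in heated dko, and chr2:15866887-15867196 held 8.91 and 8.77 CPM in dko controls and at most 0.498 CPM (0 to 11 counts) in hsfa1. Both reached the mean of 50 counts through the dko controls and were not called in hsfa1. At chr1:28781584-28781659 (2.39) the heated dko libraries were low instead, at 0.455 and 0.308 CPM, beside 2.92 and 2.55 CPM in the dko controls. Of the lowest differences, those at chr3:10910422-10910643 and chr7:15239460-15240097 joined a loss in hsfa1 to a gain in dko. There hsfa1 fell from 14.2 and 19.7 to 7.38 and 6.02 CPM and from 133 and 129 to 38.2 and 35.8 CPM, while dko rose from 4.34 and 2.55 to 8.61 and 9.65 CPM and from 36.4 and 34.0 to 67.4 and 61.9 CPM. The differences were -2.72 (SE 0.30) and -2.70 (SE 0.31), with adjusted p = 4.58e-07 and 5.35e-07 by edgeR. At chr2:4528885-4529039, where the difference was also -2.72, hsfa1 had no call (-0.15, adjusted p = 0.729) and dko rose from 0.927 and 0.919 to 5.28 and 5.70 CPM.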

How the data were processed

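The table holds raw counts of reads per accessible region, deposited without normalization for 16 Marchantia heat series libraries, each column matched to a sample by the labels. The submitters' processing notes name Bowtie2 2.4.4 with bedtools and deepTools, fastp 0.24.0, featureCounts with Subread 2.0.6, FastQC 0.11.9, MACS2 2.2.7.1 and SAMtools. The build, the treatment of duplicates, the shift of reads for Tn5, the order of steps and the base from which starts count are not given in the sources used here; starts are printed as deposited.

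Counts were fitted with edgeR 4.0.16 (R 4.3.3, limma 3.58.1) over all 16 libraries, with a mean per group, TMM factors, the quasi-likelihood F test and Benjamini-Hochberg adjustment over 40873 regions at a threshold of 0.05. The filterByExpr filter removed 0 regions, so the alternative without it is the same fit. The SE of a log2 change is its size divided by the root of its F value. Differences between genotypes are interaction terms of the same fit, and those of hsfa1 with Tak-1, hsfb1 and dko share the hsfa1 libraries. With 2 libraries per group an exact permutation test cannot go below 0.333, so no such test was used. The method was tested on simulated data. These gave all libraries the same spread at a region, so that test does not cover groups that differ in spread, as the real ones did.

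Regions were named from those that passed the threshold: the 12 highest and 12 lowest changes (mean of at least 50 counts over the 4 hsfa1 libraries), the 6 largest changes in CPM each way, the 4 highest and 4 lowest of each interaction (the same minimum over the 8 libraries compared, so a region high in the other genotype alone could be named), stretches of at least 4 neighbours over 2-fold (the 5 longest each way), and the 3 largest interactions each way among regions called in opposite directions in hsfa1 and Tak-1. Regions and classes were chosen with earlier results of these data known; the dense regions and the regions higher in both Tak-1 and hsfb1 were chosen after their values were seen. Lists of heat shock genes and heat shock elements were not used here, since no genome of the build was at hand. Alternatives were DESeq2 1.42.0, total count scaling, loess offsets, a mean of at least 100 counts, a replicate block, the 4 hsfa1 libraries alone, leaving out each library, and, chosen after seeing the data, leaving out the dense regions and a block with crossed hsfb1 numbers. Samples with the same replicate number were not taken as pairs.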

Additional observations from a re-analysis of the deposited data

Results flagged for a closer look

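The heat response of hsfa1 differed from that of another genotype, by the interaction test, at 2725 regions for Tak-1, 1983 for hsfb1 and 2178 for dko, and at the named regions below. All values are log2 differences, the hsfa1 response minus the other, and their causes were not tested.

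Against Tak-1 the response was lower at chr6:23014005-23014289 (-5.04), chr6:21511931-21512229 (-4.31), chr6:21510937-21511695 (-3.84), chr7:10377869-10378033 (-3.77), chr1:11797497-11797858 (-3.75), chr4:16484553-16484724 (-3.63), chr1:26848102-26848220 (-2.49) and chr4:26709533-26709939 (-1.45). It was higher at chr5:5128437-5128567 (1.53), chr4:14052538-14052673 (1.42), chr8:15989318-15989846 and chr4:21847831-21848063 (1.39 each), chr2:23335094-23335353 (1.00), chr4:15886210-15888308 (0.89), chr7:7695423-7699350 (0.87), chr1:20454647-20457753 (0.82) and chr3:1749218-1752281 (0.72). The call at chr4:14052538-14052673 was lost in 7 alternatives, with total count scaling among them (1.30, adjusted p = 0.0875 by edgeR).

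Against hsfb1 it was lower at chr6:23014005-23014289 (-4.04), chr7:10377869-10378033 (-3.88), chr6:21511931-21512229 (-3.78) and chr1:11797497-11797858 (-3.47). It was higher at chr3:2227424-2227500 (2.54), chr4:16207818-16207962 (2.35), chr4:24589553-24589651 (2.21), chr5:5128437-5128567 (2.09), chr5:6887519-6887743 (1.91), chr7:21233392-21233509 (1.82), chr5:14036960-14037075 (1.64), chr3:1451717-1451826 (1.57), chr5:6887020-6887383 (1.42) and chr5:6887939-6888745 (1.38).

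Against dko it was higher at chr4:11318365-11318976 (4.50), chr2:15866887-15867196 (3.03), chr7:7391358-7391469 (2.71) and chr1:28781584-28781659 (2.39). The call at chr2:15866887-15867196 was lost with loess offsets (2.42, adjusted p = 0.0637 by edgeR). It was also lost without hsfa1 control replicate 1 (2.07) or hsfa1 heat replicate 2 (2.78). Against dko the response was lower at the regions that follow. It was lower at chr3:10910422-10910643 and chr2:4528885-4529039 (-2.72 each), chr7:15239460-15240097 (-2.70), chr5:11571800-11572098 (-2.63), chr5:11567912-11569660 (-2.33), chr1:176121-179014 (-2.29), chrV:7398160-7400077 (-2.28), chrV:7405048-7406354 (-2.27), chr4:26709533-26709939 (-2.24), chrV:7406922-7407150 (-2.23), unplaced-scaffold_279 from 735 to 1889 (-2.08), chr4:4552697-4554677 (-2.07), chrV:7395203-7396734 (-2.05), chr3:12270727-12270868 (-1.70) and unplaced-scaffold_330 from 3107 to 4395 (-1.06).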

How the results depend on the processing

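The count of regions changed in hsfa1 was 14656 to 21651 under the alternatives that kept every library and 8888 to 11424 without any 1 hsfa1 library, and over 2-fold 2009 to 2617 and 2420 to 3017. The difference from Tak-1 gave 917 regions with loess offsets, 1405 with total count scaling and 298 to 14522 without any 1 library. The differences from hsfb1 and dko gave 368 to 3234 and 1259 to 1770 without any 1 library; the cause of these moves was not tested. A left-out library leaves a group with 1 library, assumed to vary like the others. Replicate numbers did not pair the samples (deviations of control and heated libraries correlated at 0.075 in hsfa1 and at 0.143, -0.226 and -0.037 in Tak-1, hsfb1 and dko). With the replicate block the counts were 15708 in hsfa1 (2617 over 2-fold) and 4698, 2946 and 2625 for the differences from Tak-1, hsfb1 and dko, and 3610 for hsfb1 with crossed numbers. Of 79 results at named regions, 65 kept direction and call under every alternative; of 929 values under alternatives 47 lost the call and 0 reversed. Regions in the narrowest 10% held a median of 78.5 counts per hsfa1 library.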
